A study of Rattus norvegicus with 20 samples.

Results

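Carboxylesterases and other hydrolases that organophosphates inhibit, or that break organophosphates down, were followed in the liver of male rats given triphenyl phosphate. The 10 genes were chosen by name, with earlier results of these data known. They were the carboxylesterases Ces2c and Ces1d, the deacetylase Aadac, the cholinesterases Bche and Ache and the paraoxonase Pon1. The others were the neuropathy target esterase Pnpla6, the fatty acid amide hydrolase Faah, the monoacylglycerol lipase Mgll and the hepatic lipase Lipc. The arrays measured 9 of the 10, through 14 of the 31042 probe sets analysed and among 14224 genes in all. Ache was not analysed here, because no probe set is assigned to it in the platform annotation. Triphenyl phosphate, an aromatic organophosphate ester, is added to plastics and foams as a flame retardant. Male Harlan Sprague Dawley rats received it in corn oil by oral gavage, once daily for 4 days, and the liver was taken on day 5. The vehicle group received corn oil alone (0 mg/kg, 5 arrays), and 3 arrays were made at each of 55, 110, 220, 440 and 881 mg/kg. The labels of the arrays give 440 mg/kg where the study description gives 441 mg/kg, and 440 mg/kg is used here. The protocol text speaks of 5 dose groups of 3 rats and then lists 6 doses, and it does not tie each array to its own animal, so p-values measure the spread between these liver samples.

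Most of these enzymes are serine hydrolases, in which an active-site serine attacks an ester or amide bond and is then freed by water. Organophosphates phosphorylate that serine, and the phosphorylated enzyme recovers slowly or not at all. Carboxylesterases of the liver endoplasmic reticulum cleave ester and amide drugs and, in some members, stored triacylglycerol. Paraoxonase is different: it is a calcium-dependent enzyme carried on high-density lipoprotein that hydrolyses the oxon forms of organophosphate insecticides. Messenger RNA was measured, not enzyme activity.

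The bases just before the start of Ces2c, Ces1d and Lipc are shown because these are the members with the largest changes, and they moved in opposite directions. The sequences are from RefSeq, build GRCr8, cover the 250 bases before the start that the RefSeq table of start windows gives for each gene and are written 5′ to 3′ on the strand of the gene: chr1:270376951-270377200 on the plus strand for Ces2c, chr19:30046244-30046493 on the plus strand for Ces1d and chr8:80516286-80516535 on the minus strand for Lipc. Capitals mark AGTTCA and AGGTCA, the hexamer cores that nuclear receptors recognise, and CCAAT, a general promoter motif, each on either strand.
Ces2c: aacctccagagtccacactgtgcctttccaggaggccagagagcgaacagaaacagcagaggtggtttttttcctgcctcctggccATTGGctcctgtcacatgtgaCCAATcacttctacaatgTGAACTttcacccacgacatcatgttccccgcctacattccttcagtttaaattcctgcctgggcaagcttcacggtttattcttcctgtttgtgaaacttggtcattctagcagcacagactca
Ces1d: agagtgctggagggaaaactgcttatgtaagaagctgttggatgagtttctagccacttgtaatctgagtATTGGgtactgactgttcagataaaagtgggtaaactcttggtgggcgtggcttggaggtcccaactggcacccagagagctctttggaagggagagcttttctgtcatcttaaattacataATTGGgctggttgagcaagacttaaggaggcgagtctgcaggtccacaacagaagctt
Lipc: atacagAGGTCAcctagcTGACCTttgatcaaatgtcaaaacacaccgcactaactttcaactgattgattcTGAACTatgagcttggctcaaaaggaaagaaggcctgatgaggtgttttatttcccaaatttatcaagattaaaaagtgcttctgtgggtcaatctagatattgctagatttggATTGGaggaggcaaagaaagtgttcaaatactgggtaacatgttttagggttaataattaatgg
The Ces2c window held AGTTCA, on the minus strand of the gene, 125 to 120 bases before the start. The Lipc window held AGGTCA on the plus strand at 244 to 239 bases and on the minus strand at 232 to 227 bases, and AGTTCA on the minus strand at 178 to 173 bases. The Ces1d window held neither core. For Lipc the gene's annotated span reaches further upstream than this start, to position 80516463, so 178 of the 250 bases shown, the AGTTCA match among them, lie inside that span and the AGGTCA matches outside it. Over windows of the same length before 33469 RefSeq starts, 12.2% held AGTTCA, 14.1% held AGGTCA and 34% held CCAAT. Among the 10 members, AGTTCA was in the windows of Ces2c, Aadac and Lipc, AGGTCA in those of Faah and Lipc, and CCAAT in those of Ces2c, Ces1d, Pon1, Mgll and Lipc. For Aadac and for Pon1 all 250 bases of the window lay inside the annotated span of the gene. The TATAAA box was in 12.9% of all windows and in 0 of the members' windows. Direct repeats of the cores, in either order and with spacers of 1, 3, 4 or 5 bases, were also in 0 of the members' windows. A match describes the letters of a window and is not evidence that a factor binds there.

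The values are log2 expression per probe set, and a difference of 1 is a 2-fold difference in signal. The hepatocyte marker Alb lay between 15.30 and 15.36 on all 20 arrays. Its mean signal was at percentile 100 of all genes, and quantile normalization holds the highest values alike across arrays. Its narrow range therefore does not show that hepatocyte content was the same. The other measured hepatocyte markers ranged more widely, for example Cyp2e1 from 13.82 to 14.41 and Tat from 8.92 to 11.22. A single array, replicate 2 at 881 mg/kg, stood apart: its median correlation with the other arrays was 0.980, against 0.990 to 0.994 for the rest. The difference between its 3' and 5' Gapdh control probe sets was 5.24, against 0.81 to 1.64 elsewhere, and for beta-actin 3.47 against 1.67 to 2.72. Results at 881 mg/kg that this array decides are therefore given with and without it. Liver is a mixture of cells, and in bulk tissue fewer cells of a type and less RNA per cell cannot be told apart.

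At 881 mg/kg Ces2c and Mgll rose and Ces1d and Lipc fell, while Bche, Aadac, Pon1, Pnpla6 and Faah did not pass the test. A gene was called changed at an adjusted p under 0.05 in limma, with Benjamini-Hochberg adjustment over all 14224 genes. These 4 calls of 9 measured members (44.4%) stood against 19.5% of all genes called at that dose. Rises made up 12.7% of all genes and falls 6.76%. The median change of the 9 was 0.04 against 0.00074 for all genes. Without replicate 2 at that dose 3 of 9 were called, Mgll no longer among them, where 11.6% of all genes were. The members were chosen with earlier results of these data known, so their shares do not test an excess. At 440 mg/kg 2 of 9 were called, Ces2c up and Lipc down, where 11% of all genes were called (6.76% rose and 4.28% fell). Ces2c was the 1 member called at each of 55, 110 and 220 mg/kg, against a background of 2.73%, 3.61% and 3.43% of all genes. Rises made up 1.87%, 2.36% and 2.25% of all genes at these 3 doses, and falls 0.858%, 1.24% and 1.18%. These backgrounds moved with single arrays: with each of the 20 left out in turn, the share of all genes called ran from 0.893% (without replicate 2 of that dose) to 4.56% at 55 mg/kg, from 1.49% (without replicate 1) to 4.96% at 110 mg/kg, from 1.43% (without replicate 2) to 5.25% at 220 mg/kg and from 6.1% (without replicate 2) to 14.1% at 440 mg/kg. The highest share at each of these 4 doses was that without replicate 2 at 881 mg/kg. In the trend over the 6 ordered dose steps, 2 members rose and 2 fell, the same genes as at 881 mg/kg, and 21.7% of all genes were called (12.9% rose and 8.82% fell).

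**Figure D1:**
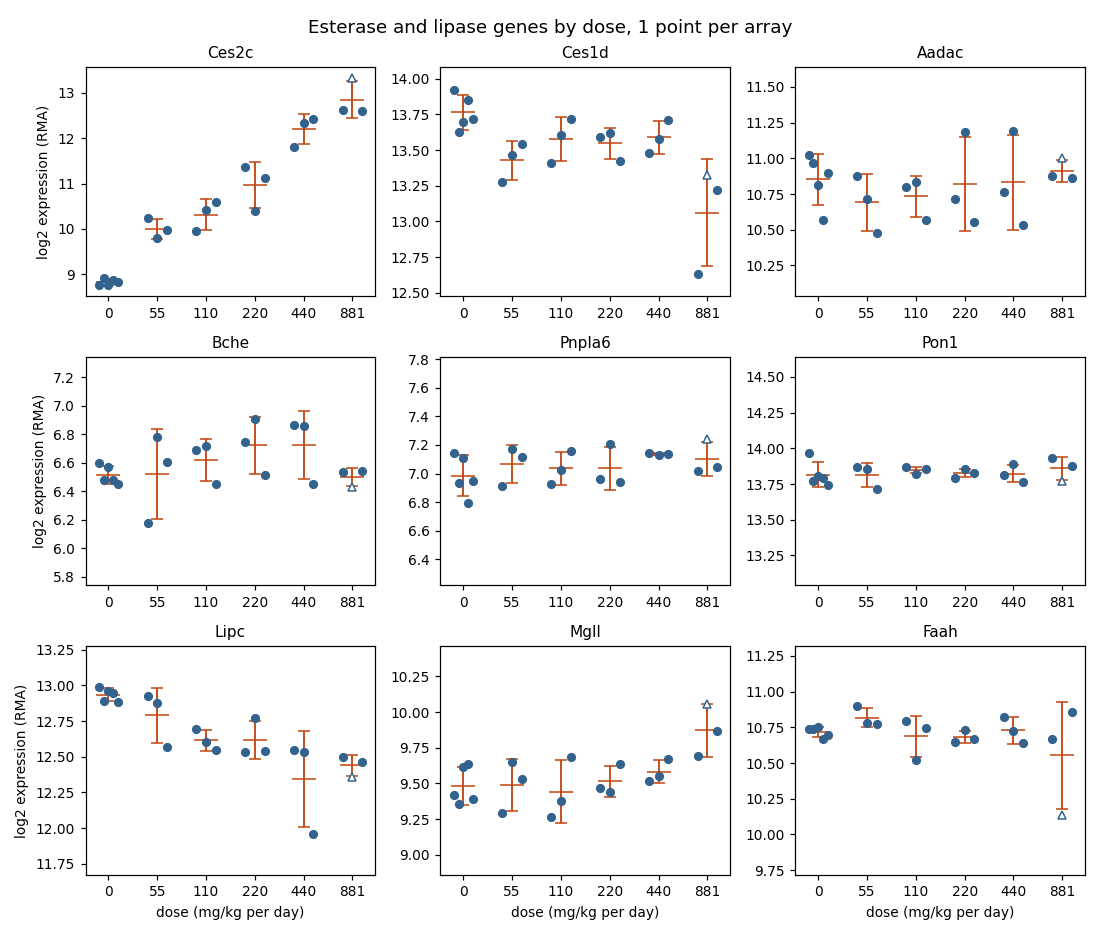
Log2 expression (RMA) of the 9 measured genes on each of the 20 arrays by dose in mg/kg per day, with 1 point per array, the mean and the SD as bars, and replicate 2 at 881 mg/kg as an open triangle. Ces2c climbs from 8.83 in vehicle to 12.86 at 881 mg/kg, and the other 8 panels share a narrower span of the axis.

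Ces2c is a liver carboxylesterase of the CES2 class, which hydrolyses esters with a bulky alcohol group. Its signal (probe set 1368905_at) was 8.76, 8.92, 8.75, 8.87 and 8.82 on the vehicle arrays. The 3 arrays read 10.24, 9.79 and 9.99 at 55 mg/kg and 9.94, 10.41 and 10.59 at 110 mg/kg. Every one of these dosed arrays lay above every vehicle array, already at the lowest dose. At 220 mg/kg the arrays read 11.37, 10.40 and 11.13, at 440 mg/kg 11.82, 12.35 and 12.43, and at 881 mg/kg 12.63, 13.33 and 12.60. Neighbouring dose groups overlapped between 55 and 110 mg/kg and between 110 and 220 mg/kg, but not above that. The vehicle mean of 8.83 ± 0.07 (SD, n = 5) compared with 10.00 ± 0.22 at 55 mg/kg (SD, n = 3), a change of 1.18 ± 0.21 (SE) or 2.27-fold, with an adjusted p of 0.00451 in limma.

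The rise of Ces2c grew at each higher dose. The mean was 10.32 ± 0.33 at 110 mg/kg, 10.97 ± 0.51 at 220 mg/kg, 12.20 ± 0.33 at 440 mg/kg and 12.86 ± 0.42 at 881 mg/kg (SD, n = 3 each). These levels were 2.81-fold, 4.41-fold, 10.3-fold and 16.3-fold that of vehicle, with adjusted p-values in limma of 0.000365, 1.03e-05, 1.19e-08 and 1.01e-09. Among all genes its increase ranked 18th at 55 mg/kg, 12th at 110 mg/kg, 5th at 220 mg/kg and 2nd at both 440 and 881 mg/kg. Without the array that stood apart the change at 881 mg/kg was 3.79, and all 3 arrays at that dose, that array included, lay above every array at 440 mg/kg. Per dose step the slope was 0.79 ± 0.04 (SE, adjusted p 1.20e-11 in limma).

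Steps between neighbouring doses were tested in the same fit. From 55 to 110 mg/kg Ces2c differed by 0.31, with a 95% interval from -0.17 to 0.80. From 110 to 220 mg/kg it differed by 0.65 (0.16 to 1.13), from 220 to 440 mg/kg by 1.23 (0.75 to 1.72) and from 440 to 881 mg/kg by 0.66 (0.17 to 1.14). None of these 4 steps passed the test, the smallest adjusted p being 0.0743 from 220 to 440 mg/kg. Of all genes, 0 were called from 55 to 110 mg/kg and 0 from 110 to 220 mg/kg, 0.0211% from 220 to 440 mg/kg and 0.26% from 440 to 881 mg/kg. At an unadjusted p under 0.05 in limma, 388, 418, 835 and 1509 genes passed in these 4 steps. Of the 9 members, 0, 1, 2 and 3 passed unadjusted: Ces2c from 110 to 220 mg/kg, Ces2c and Lipc from 220 to 440 mg/kg, and Ces1d, Ces2c and Mgll from 440 to 881 mg/kg.

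**Figure D2:**
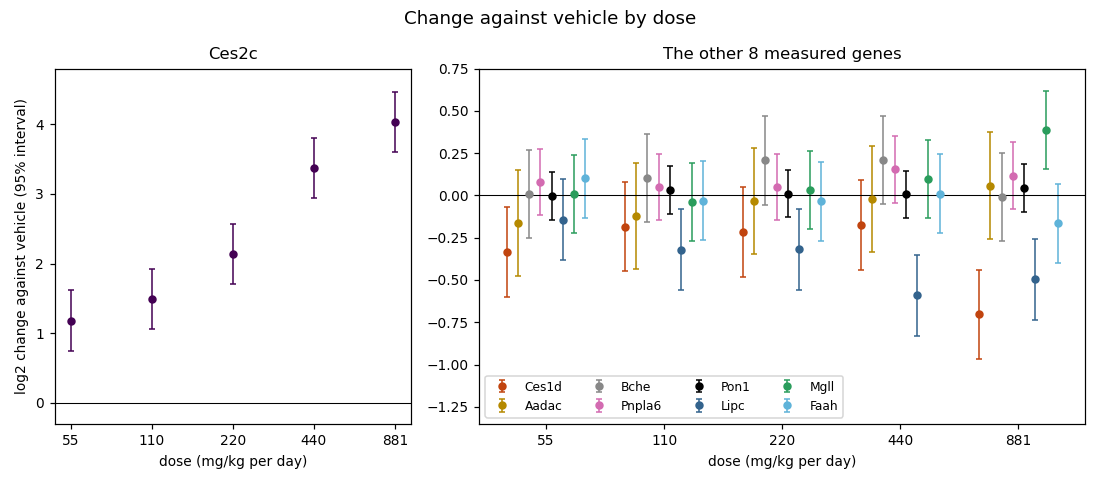
Log2 change against vehicle at each dose in mg/kg per day, as points with 95% intervals from the limma fit, for Ces2c on the left and the other 8 measured genes on the right with a separate axis. Every Ces2c interval lies above 0, from 1.18 at 55 mg/kg to 4.03 at 881 mg/kg, and the other points lie between -0.70 and 0.39.

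The genes whose 5 changes lay closest to those of Ces2c, by root-mean-square difference over the 5 doses, were Abcc3, Per3 and Gsta3, at distances of 0.41, 1.07 and 1.09. Abcc3, an efflux transporter of organic anions on the sinusoidal side of hepatocytes, changed by 0.41, 1.48, 2.49, 3.30 and 3.67 from 55 to 881 mg/kg. Gsta3, a glutathione transferase, changed by 0.07, 0.53, 1.30, 2.21 and 2.72, and Per3, a circadian clock gene, by 1.75, 1.91, 1.69, 2.33 and 2.04. The distances of Per3 and Gsta3 were large beside the changes themselves. All changes share the same 5 vehicle arrays. Genes named here and below as closest to a member were picked for their like changes. A like change or call in them is therefore not a separate result.

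Ces1d, a carboxylesterase known as a triacylglycerol hydrolase of the hepatocyte, fell at 881 mg/kg. Its signal (probe set 1370363_at) on the vehicle arrays was 13.92, 13.63, 13.70, 13.85 and 13.72, and at 881 mg/kg 12.63, 13.33 and 13.22. All 3 dosed arrays lay below every vehicle array. The mean was 13.06 ± 0.37 (SD, n = 3) against 13.76 ± 0.12 (SD, n = 5), 1.63-fold lower, a change of -0.70 ± 0.13 (SE, adjusted p 0.000821 in limma). Replicate 1 had the lowest value at this dose, and without it the change was -0.49 (adjusted p 0.00423). Without replicate 2 it was -0.84 (adjusted p 0.00049).

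At the lower doses Ces1d did not pass the test. The 3 arrays read 13.28, 13.47 and 13.54 at 55 mg/kg, 13.41, 13.61 and 13.72 at 110 mg/kg, 13.59, 13.62 and 13.42 at 220 mg/kg, and 13.48, 13.57 and 13.71 at 440 mg/kg. The arrays at 55 and 220 mg/kg lay below every vehicle array, and those at 110 and 440 mg/kg overlapped with vehicle. The changes were -0.33, -0.19, -0.22 and -0.18 with adjusted p-values in limma of 0.181, 0.502, 0.424 and 0.423. From 440 to 881 mg/kg Ces1d differed by -0.53, with a 95% interval from -0.82 to -0.23 (adjusted p 0.131), and without replicate 2 at 881 mg/kg this step was called. The slope per dose step was -0.09 (adjusted p 0.0169 in limma), and this call was lost without replicate 1 at 881 mg/kg.

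RefSeq holds a near copy of Ces1d, Ces1dl1, whose start window, from 250 bases before to 50 bases after the start, was identical at 264 of 284 aligned bases (93.0%). Whether the Ces1d probe set also reads Ces1dl1 was not tested. The genes closest to Ces1d in their 5 changes were Dll1, Axin2 and Adipor2, at distances of 0.08, 0.08 and 0.09. Dll1, a Notch ligand, changed at 881 mg/kg by -0.54 and Axin2, a target and inhibitor of Wnt signalling, by -0.62, and both were called. Adipor2, a receptor for adiponectin, changed by -0.71 but was not called (adjusted p 0.132 in limma).

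Of 15 carboxylesterase genes listed for the rat, 5 were measured through a probe set that names no other gene. Beside Ces2c and Ces1d these were Ces1c, Ces1e and Ces5a, and none of those 3 was called at any dose. Ces1c, a carboxylesterase secreted into plasma, changed by 0.14, 0.01, 0.02, -0.03 and -0.0046 from 55 to 881 mg/kg, with a 95% interval at 881 mg/kg from -0.19 to 0.19. Ces1e changed by 0.21 at 881 mg/kg with all arrays (adjusted p 0.278 in limma) and by 0.0046 without replicate 2. Ces5a changed by 0.02 at that dose. Every other member of the Ces2 class on the list, namely Ces2a, Ces2e, Ces2g, Ces2h, Ces2i and Ces2j, was not analysed here, so whether the rise of Ces2c is shared within its class was not tested.

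Aadac, arylacetamide deacetylase, is a microsomal hydrolase that removes acetyl groups from aromatic amides and some drugs. Its vehicle signal was 10.85 ± 0.18 (SD, n = 5), and the lowest, median and highest of those arrays were 10.57, 10.90 and 11.03. At 881 mg/kg the 3 arrays read 10.88, 11.00 and 10.86, inside the vehicle range. The changes from 55 to 881 mg/kg were -0.16, -0.12, -0.04, -0.02 and 0.06, none of them called. The 95% interval at 881 mg/kg ran from -0.25 to 0.37.

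The cholinesterase and the paraoxonase did not pass the test at any dose. Bche, butyrylcholinesterase, is made in the liver and secreted into plasma, where it scavenges organophosphates. The vehicle arrays read 6.60, 6.48, 6.57, 6.48 and 6.45, and at 881 mg/kg the arrays read 6.53, 6.43 and 6.54. The 881 mg/kg arrays overlapped with vehicle. The mean signal of Bche lay at percentile 35.5 of all genes, against 99.5 for Pon1, and RMA compresses low signals. The changes were 0.0070 at 55 mg/kg, 0.10 at 110 mg/kg, 0.21 at 220 and at 440 mg/kg, and -0.01 at 881 mg/kg, with adjusted p-values in limma from 0.316 to 0.989. At 220 mg/kg the arrays were 6.74, 6.91 and 6.51 and at 440 mg/kg 6.86, 6.86 and 6.45, so 2 of 3 arrays in each group lay above every vehicle array. The 95% interval was -0.05 to 0.47 at both doses.

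Pon1 was the member with the narrowest intervals. Its signal (probe set 1371050_at) was 13.82 ± 0.09 in vehicle (SD, n = 5) and 13.86 ± 0.08 at 881 mg/kg (SD, n = 3), and across all 20 arrays it lay between 13.71 and 13.97. The changes over the 5 doses were -0.0036, 0.03, 0.01, 0.0066 and 0.04, and the 95% interval at 881 mg/kg ran from -0.10 to 0.18. A second, dimmer probe set of Pon1, 1393941_at, read 6.26 ± 0.16 at 881 mg/kg against 5.91 ± 0.22 in vehicle, a difference of 0.35 that missed the threshold (adjusted p 0.0619 in limma over all probe sets). The 2 probe sets thus gave different values at the highest dose, and neither was called.

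Pnpla6, neuropathy target esterase, is the phospholipase whose inhibition and ageing precede the delayed neuropathy caused by some triaryl phosphates. Its vehicle arrays read 7.14, 6.93, 7.11, 6.79 and 6.95, and at 881 mg/kg the arrays read 7.02, 7.24 and 7.05. The groups overlapped at every dose. The mean signal of Pnpla6 was also low, at percentile 42.55 of all genes. The changes were 0.08, 0.05, 0.05, 0.15 and 0.12, and the 95% interval at 881 mg/kg ran from -0.08 to 0.31.

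Among the lipid-cleaving members, Lipc fell at the 2 highest doses. Lipc, hepatic lipase, is secreted by hepatocytes and hydrolyses triacylglycerol and phospholipid of lipoprotein remnants and high-density lipoprotein. The signal (probe set 1369701_at) on the vehicle arrays was 12.99, 12.89, 12.96, 12.95 and 12.88. At 440 mg/kg the arrays read 12.55, 12.53 and 11.96, and at 881 mg/kg 12.50, 12.36 and 12.46. All 6 of these arrays lay below every vehicle array. From the vehicle mean of 12.93 ± 0.05 (SD, n = 5) the mean fell to 12.35 ± 0.34 (SD, n = 3) at 440 mg/kg, 0.665 times the vehicle signal, a change of -0.59 ± 0.11 (SE, adjusted p 0.00236 in limma). At 881 mg/kg it was 12.44 ± 0.08, 0.709 times the vehicle signal, a change of -0.50 ± 0.11 (adjusted p 0.00514). Replicate 3 at 440 mg/kg was the lowest of the 20 arrays, and without it the change at 440 mg/kg was -0.39 (adjusted p 0.0182).

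The mean levels of Lipc at the lower doses lay between these levels and that of vehicle. The arrays read 12.93, 12.88 and 12.57 at 55 mg/kg, 12.69, 12.61 and 12.54 at 110 mg/kg, and 12.54, 12.77 and 12.54 at 220 mg/kg. At 110 and 220 mg/kg all 3 arrays lay below every vehicle array, but the changes of -0.32 at each dose were not called (adjusted p 0.148 and 0.146 in limma). The Lipc change from 440 to 881 mg/kg was 0.09, with a 95% interval from -0.17 to 0.36. The slope per dose step was -0.11 (adjusted p 0.000332). Closest to Lipc in the 5 changes were Tmsb4x, an actin-binding peptide, Elovl5, a fatty acid elongase, and Hey1, a transcriptional repressor, at distances of 0.04 each, and all 3 were called at 881 mg/kg with changes of -0.52, -0.52 and -0.49.

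Mgll, monoacylglycerol lipase, releases fatty acids from monoacylglycerols and ends the signal of the endocannabinoid 2-arachidonoylglycerol. Its brightest probe set (1388644_at) read 9.42, 9.35, 9.61, 9.64 and 9.39 in vehicle and 9.69, 10.06 and 9.87 at 881 mg/kg. All 3 arrays at that dose lay above every vehicle array. The mean rose from 9.48 ± 0.13 (SD, n = 5) to 9.87 ± 0.18 (SD, n = 3), a change of 0.39 ± 0.11 (SE, adjusted p 0.0182 in limma). The call was lost without replicate 2 (change 0.30, adjusted p 0.122), the array that stood apart and the highest of the 3. At the 4 lower doses the changes were 0.0081, -0.04, 0.03 and 0.10, with adjusted p-values from 0.632 to 0.984. The slope per dose step was 0.06 (adjusted p 0.0375), and this call was lost in 8 of 20 cases with 1 array left out: replicates 1, 2 or 5 of vehicle, replicate 1 at 55 mg/kg, replicate 3 at 440 mg/kg, or any array at 881 mg/kg. It was also lost with array weights and with the beta-actin covariate, the 3' to 5' difference of that control added to the fit.

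The array carries 4 probe sets for Mgll, and they did not give the same result. In a fit over all probe sets, 1375247_at rose by 0.89 at 881 mg/kg (adjusted p 0.0209 in limma) and 1388644_at by 0.39 (adjusted p 0.0256). The other pair were not called: 1370831_at differed by 0.23 (adjusted p 0.362) and 1375355_at by 0.0088 (adjusted p 0.972). The last was the dimmest of the 4, and RMA compresses low signals. The arrays of 1375247_at at 881 mg/kg lay between 9.66 and 10.25, above the vehicle range of 8.93 to 9.34, while those of 1375355_at, from 6.22 to 6.72, overlapped with its vehicle range of 6.38 to 6.63. Which transcripts each probe set reads was not tested. The genes closest to Mgll in their 5 changes were Rcc2, Ccdc62 and Cep95, at distances of 0.01, 0.02 and 0.03. They changed by 0.38, 0.38 and 0.43 at 881 mg/kg, of which the last was not called.

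**Figure D3:**
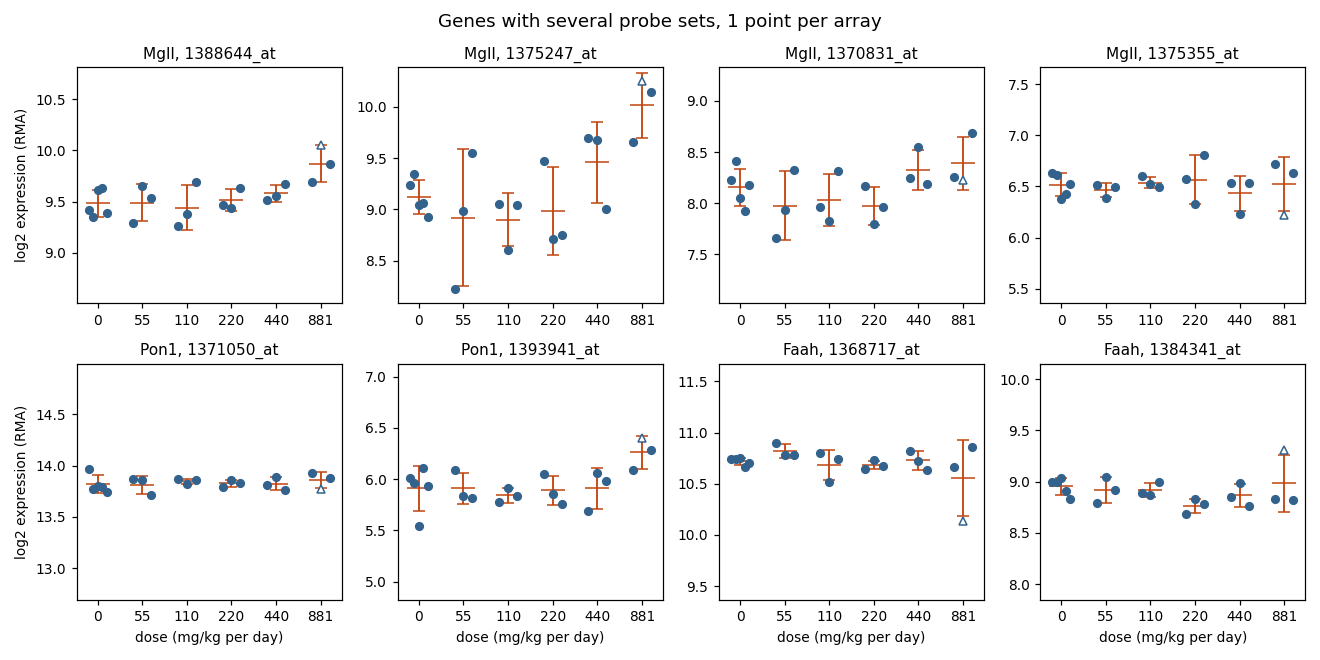
Log2 expression (RMA) by dose in mg/kg per day for each probe set of Mgll, Pon1 and Faah, with 1 point per array, the mean and the SD as bars, and replicate 2 at 881 mg/kg as an open triangle. Of the 4 Mgll panels, 1388644_at and 1375247_at lie above vehicle at 881 mg/kg, and the open triangle is the lowest Faah point in 1368717_at (10.14) and the highest in 1384341_at (9.31).

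Faah, which hydrolyses anandamide and other fatty acid amides, was not called at any dose. The platform annotation lists its symbol for more than 1 gene record, and it was kept as 1 gene. Probe set 1368717_at read 10.74, 10.74, 10.75, 10.67 and 10.70 in vehicle and 10.67, 10.14 and 10.85 at 881 mg/kg. The change at 881 mg/kg was -0.17 with all arrays and 0.04 without replicate 2, so that array set its sign. At 55 mg/kg the arrays of 10.90, 10.78 and 10.78 lay above every vehicle array, with a change of 0.10 that was not called (adjusted p 0.739 in limma). The second probe set, 1384341_at, differed by 0.03 at 881 mg/kg.

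At each dose 2 to 4 of the 9 measured members had no array overlapping with vehicle. At 55 mg/kg these were Ces2c and Faah above and Ces1d below, 3 of 9, where 13.6% of all genes did not overlap. At 110 mg/kg they were Ces2c above and Lipc below, 2 of 9, against 12.9% of all genes. At 220 mg/kg they were Ces2c above and Ces1d and Lipc below, 3 of 9, against 13% of all genes. At 440 mg/kg they were Ces2c and Lipc, 2 of 9, against 21.2%, and at 881 mg/kg Ces2c, Mgll, Ces1d and Lipc, 4 of 9, against 21.7%.

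The other hydrolases of the same enzyme classes were taken from a list of 66 genes, of which 49 were measured. At 881 mg/kg 9 of them rose and 4 fell (26.5%, against 19.5% of all genes), and without replicate 2 the counts were 4 and 4, where 11.6% of all genes were called. At 440 mg/kg 1 rose and 3 fell (8.16%, against 11% of all genes). At 220 mg/kg 0 rose and 1 fell (2.04%, against 3.43%). At 110 mg/kg 1 rose and 1 fell (4.08%, against 3.61%), and at 55 mg/kg 1 rose and 0 fell (2.04%, against 2.73%). The list was chosen with earlier results of these data known, so its shares do not test an excess. The median change of the 49 at 881 mg/kg was 0.02. The 15 genes called at 1 or more doses (30.6%, against 24.2% of all genes) are described next.

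Lpl, lipoprotein lipase, which frees fatty acids from circulating triacylglycerol, fell the furthest of the 15. Its vehicle arrays had a lowest, median and highest value of 6.24, 6.61 and 6.86, and the arrays at 881 mg/kg 5.09, 5.27 and 5.33. The dosed arrays lay below every vehicle array. The mean signal was low, 6.59 in vehicle and 5.23 at 881 mg/kg, and RMA compresses low signals. The changes were -0.30 at 55 mg/kg, which was not called, then -0.58 at 110, -0.61 at 220, -0.80 at 440 and -1.36 ± 0.14 (SE, adjusted p 5.03e-06 in limma) at 881 mg/kg. The calls at 440 and 881 mg/kg held with each of the 8 arrays compared left out in turn. Those at 110 and 220 mg/kg were lost in 5 and 4 of the 8 cases: without replicates 2, 3 or 4 of vehicle or 2 or 3 of 110 mg/kg at 110 mg/kg, and without replicate 4 of vehicle or any array of the dose group at 220 mg/kg.

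Abhd5 and Lipa rose at the highest dose. Abhd5, the protein that activates adipose triglyceride lipase, rose by 0.53 at 440 mg/kg and 0.59 at 881 mg/kg (adjusted p 0.00548 and 0.00156 in limma). The first of these calls was lost without replicate 2 at 440 mg/kg (adjusted p 0.052). Lipa, the lysosomal acid lipase, rose by 0.54 at 881 mg/kg, a call lost without replicate 2. With Lipc counted, 2 of the 8 measured neutral and acid lipases rose at 881 mg/kg and 2 fell, against 12.7% and 6.76% of all genes. Without replicate 2 the counts were 1 and 3, where 1085 of all 14224 genes rose and 559 fell. The added fall was that of Cel, the bile salt-stimulated lipase, by 0.29 (adjusted p 0.0195 in limma), which was named after its values were seen. With all arrays Cel changed by -0.19 and was not called (adjusted p 0.0859 in limma). Its mean signal in vehicle was low, at 6.40.

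Of 7 measured genes that make or hydrolyse endocannabinoids, 3 rose and 1 fell at 881 mg/kg, where 19.5% of all genes were called, and without replicate 2 1 rose and 1 fell, where 11.6% were. Beside Mgll, Abhd4, which acts on N-acylated phospholipids, rose by 0.44, and Abhd6, another monoacylglycerol hydrolase, rose by 0.41. Naaa, the lysosomal acid amidase of N-acylethanolamines, fell by 0.51. Without replicate 2 at 881 mg/kg the Abhd6 and Mgll calls were lost and the Abhd4 call held (0.36, adjusted p 0.0495 in limma). Without replicate 3 the Naaa call was lost (-0.29, adjusted p 0.113).

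Further genes of these classes were called at 881 mg/kg with smaller changes than Lpl. Afmid, arylformamidase, an organophosphate-sensitive enzyme of tryptophan breakdown, rose by 0.65, and by 0.47 without replicate 2. Its probe set, 1396301_x_at, is of a type that can also read similar transcripts. Rgn, regucalcin, a lactonase that can also hydrolyse phosphotriesters, fell by 0.52 at 440 mg/kg and by 0.48 at 881 mg/kg. Both calls held with each of the 8 arrays compared left out. The rises of Pnpla8 (0.37), a calcium-independent phospholipase, of Bphl (0.37) and Rbbp9 (0.33), both serine hydrolases, and of Pon3 (0.27), a paraoxonase with lactonase activity, were lost without replicate 2 at 881 mg/kg. The Bphl and Rbbp9 calls were also lost without replicate 3. Abhd2 fell by 0.47, a call lost without replicate 2 or 3 of 881 mg/kg or replicate 2 of vehicle.

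A pair of genes were called only at lower doses. Pla2g15, the lysosomal phospholipase A2, rose by 0.58 at 55 mg/kg and 0.48 at 110 mg/kg and differed from vehicle by 0.11 at 881 mg/kg (adjusted p 0.593 in limma). The call at 55 mg/kg was lost without replicate 2 or 3 of that dose, and the call at 110 mg/kg with any 1 of the 8 arrays left out. Dpp7, a lysosomal dipeptidyl peptidase, fell by 0.34 at 440 mg/kg, a call lost in 7 of 8 cases, all but the omission of vehicle replicate 5.

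**Figure D4:**
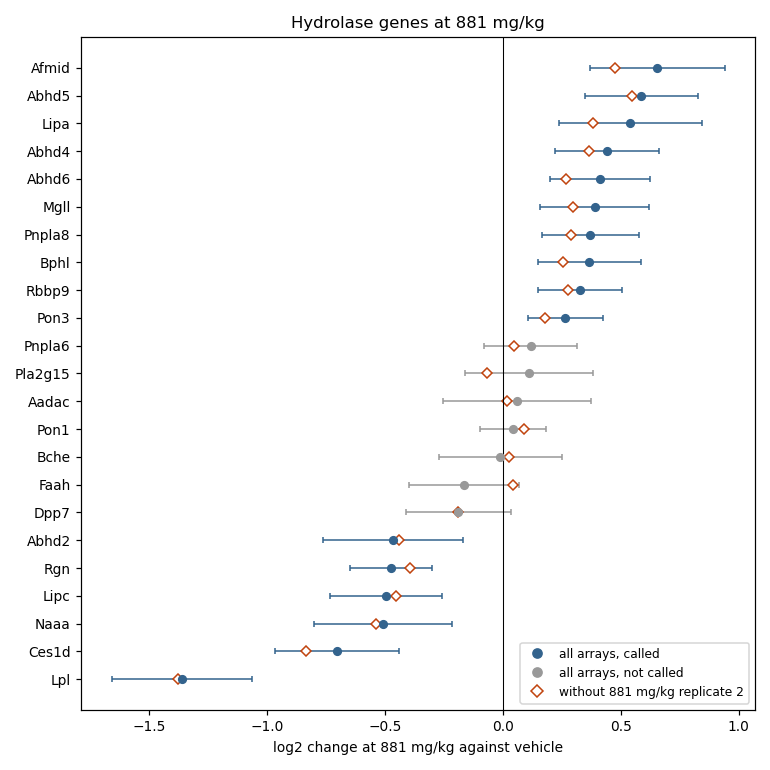
Log2 change against vehicle at 881 mg/kg for the 15 further hydrolases and the 8 measured members other than Ces2c, as points with 95% intervals, blue where called and grey where not, and open diamonds for the change without replicate 2. Lpl has the lowest value (-1.36), Ces1d follows (-0.70), and Afmid the highest (0.65).

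Markers of other liver cells moved at the same dose. At 881 mg/kg 8 of 9 measured Kupffer cell and macrophage markers fell, with a median change of -0.76, and 4 did so without replicate 2. Their mean level was 9.73 to 10.23 on the vehicle arrays and 8.91 to 9.61 at 881 mg/kg. Of 11 stellate cell and fibroblast markers 7 fell (2 without replicate 2), of 7 endothelial markers 3 (1 without replicate 2), of 7 lymphocyte markers 1, and of 4 red blood cell markers 2. Of 11 hepatocyte markers 1 rose and 3 fell (1 and 1 without replicate 2), with a mean level of 13.96 to 14.05 in vehicle and 13.80 to 13.99 at 881 mg/kg. Of 5 bile duct markers 1 rose. Over all genes 12.7% rose and 6.76% fell at 881 mg/kg. Without replicate 2, 1085 of 14224 genes rose and 559 fell. The part of the marker shifts in the changes of Ces1d, Lipc, Mgll, Lpl and the other hydrolases was not tested.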

How the data were processed

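Liver RNA of 20 samples was measured on Affymetrix arrays, 1 array per sample. The authors deposited 1 log2 value per probe set and array, made with the RMA method according to what the submitters' processing notes list; its version is not given in the sources used here. RMA in general corrects background, normalizes quantiles across arrays and condenses a set's probes by median polish, which removes differences in total RNA and compresses low signals. At most 0.0225% of values were identical between any 2 arrays.

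Of 31099 probe sets, 57 controls were set aside. The platform annotation, which can be old, gave 1 symbol for 20826 probe sets, the same symbol for more than 1 gene record for 11, several for 425 and none for 9780, and 20769 of the named ones matched a RefSeq gene by ID (GRCr8, used only for names and start windows). For 4529 of the 14224 genes, which had several probe sets, the brightest on average was used. Dose groups were compared with vehicle in 1 fit over all arrays with limma 3.58.1 (R 4.3.3), lmFit and eBayes, two-sided, with Benjamini-Hochberg adjustment over all genes and a threshold of 0.05. Intervals are 95% intervals of that fit. The number of arrays limits the precision, as arrays give no counting depth. The procedure was tested on simulated data. Tables were made with Python 3.11.15, pandas 2.3.3 and NumPy 2.4.6.

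The members and gene lists were chosen with earlier results of these data known. Named beside the members are the listed hydrolases called at 1 or more doses, at most the 15 largest at 881 mg/kg, and for each member called there the 3 genes with the closest 5 changes, uncharacterised entries left out. Ces1c, Ces1e and Ces5a were named after their values were seen. The alternatives tried were the mean of a gene's probe sets, each probe set in a fit over all of them, centring each array on its median, a filter on dim genes, a fit of vehicle and 1 dose, a robust prior with an intensity trend, array weights, the beta-actin 3' minus 5' difference as a covariate, a replicate block, and leaving out each array in turn.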

Additional observations from a re-analysis of the deposited data

Results flagged for a closer look

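Pon1 on the vehicle array of replicate 1 read 13.97 with probe set 1371050_at, the highest of 5 vehicle arrays, while the other 4 lay between 13.75 and 13.80. Its gap to the nearest array was 0.732 of the whole range, above the critical value of 0.71 for 5 samples. The vehicle group was examined in this way for all 14 probe sets of the members, and chance alone gives such a gap in about 1 of 20 groups.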

How the results depend on the processing

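Over 17 alternatives the change of Ces2c at 881 mg/kg stayed between 3.79 and 4.16 and was called in each, as it was at every other dose. The changes of Ces1d and Lipc at 881 mg/kg lay between -0.90 and -0.49 and between -0.53 and -0.45, called in each. The Mgll call at 881 mg/kg was lost with array weights (0.27, adjusted p 0.0862 in limma), with the beta-actin covariate (0.29, adjusted p 0.0593) and without replicate 2. Of 755 alternatives for the 45 changes of single members, 691 kept direction and call, 3 lost and 2 gained a call, and 59 took the other sign, all for changes of either sign that were not called.

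The count of members called was 2 at 110 mg/kg with vehicle and that dose alone, where Lipc was added (-0.32, adjusted p 0.0333 in limma), and 2 at 220 mg/kg with array weights, again with Lipc (-0.37, adjusted p 0.0271). From 440 to 881 mg/kg it was 1 with array weights (Ces1d) in place of 0. For the 58 measured genes of the hydrolase list with members included, 1 was called at 220 mg/kg with dim genes left out, in place of 2. Array weights gave 4 at 220 mg/kg in place of 2, and 12 at 440 mg/kg in place of 6. Array weights also raised the share of all genes called. It rose from 3.43% to 9.09% at 220 mg/kg and from 11% to 17.6% at 440 mg/kg. Between 440 and 881 mg/kg it rose from 0.26% to 1.22%. With vehicle and 110 mg/kg alone this share was 3.31% in place of 3.61%. With dim genes left out, 6.85% of the genes kept were called at 220 mg/kg. Arrays were then left out in turn, all 20 for the trend and only those of the groups compared for every other count. Members called ranged from 2 to 4 in the trend, from 3 to 4 at 881 mg/kg and from 0 to 1 between 440 and 881 mg/kg. The list counts ranged from 1 to 2 at each of 55, 110 and 220 mg/kg, where 2, 3 and 2 were called with all arrays, from 4 to 7 at 440 mg/kg and from 11 to 20 at 881 mg/kg, where 17 were called with all arrays. The lowest of these at 881 mg/kg was without replicate 2 of that dose.

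Over all genes, 2774 were called at 881 mg/kg, 1644 without replicate 2 and 1797 in a fit of vehicle and that dose alone. Of the 2774, 1813 rose and 961 fell, and after centring of every array on its median 2270 rose and 684 fell.

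Replicate numbers are shared between groups. Over 45 pairs of same-numbered arrays the correlation of deviations lay between -0.116 and 0.348. Its median was 0.136, and 28 pairs were over 0.1. Over 120 pairs with different numbers the median was -0.0495. By this measure 15 of 20 arrays correlated best with their own number, a hint from the data only. The labels state no pairing, so the main fit did not pair the samples by number. With the replicate block the members called were 4 at 881 mg/kg, 2 at 440 mg/kg, 1 at each lower dose and 3 in the trend, where Ces1d was not called, and 15 genes of the list were called at 881 mg/kg. Of all genes, 18.1% were called with the block at 881 mg/kg, 10.2% at 440 mg/kg and 19.6% in the trend. At 220, 110 and 55 mg/kg the shares of all genes were 2.26%, 2.5% and 1.98%.

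The changes that took the other sign were small. With the replicate block they were -0.0273 for Bche at 55 mg/kg, -0.0231 for Aadac at 881 mg/kg, -0.0211 for Pon1 at 220 mg/kg, -0.0255 for Pon1 at 440 mg/kg, -0.028 for Pnpla6 at 110 mg/kg, -0.0262 for Pnpla6 at 220 mg/kg and -0.0134 for Faah at 440 mg/kg. With centred arrays they were 0.0338 for Bche at 881 mg/kg, 0.00177 for Aadac at 440 mg/kg and 0.00584 for Pon1 at 55 mg/kg. With array weights they were 0.0234 for Bche at 881 mg/kg and 0.0587 for Aadac at 440 mg/kg. With the beta-actin covariate they were 1.63e-05 for Pon1 at 55 mg/kg, 0.00713 for Faah at 220 mg/kg, -0.00291 for Mgll at 55 mg/kg and -0.0012 for Mgll at 220 mg/kg. With the mean of a gene's probe sets they were -0.0186 for Pon1 at 110 mg/kg, -0.00473 for Pon1 at 220 mg/kg, -0.0388 for Faah at 440 mg/kg, -0.11 for Mgll at 55 mg/kg and -0.0605 for Mgll at 220 mg/kg. With arrays left out in turn the following values crossed 0. Bche ran from -0.12 to 0.18 at 55 mg/kg and from -0.0326 to 0.0244 at 881 mg/kg. Aadac ran from -0.22 to 0.10 at 220 mg/kg, from -0.20 to 0.13 at 440 mg/kg and from -0.0132 to 0.10 at 881 mg/kg. Pon1 ran from -0.0315 to 0.0462 at 55 mg/kg, from -0.00674 to 0.049 at 220 mg/kg and from -0.0259 to 0.0445 at 440 mg/kg. Pnpla6 ran from -0.0119 to 0.11 at 110 mg/kg and from -0.0345 to 0.10 at 220 mg/kg. Faah ran from -0.0859 to 0.0513 at 110 mg/kg, from -0.0369 to 0.0555 at 440 mg/kg and from -0.32 to 0.0425 at 881 mg/kg. Mgll ran from -0.0715 to 0.11 at 55 mg/kg, from -0.16 to 0.0502 at 110 mg/kg and from -0.0294 to 0.0701 at 220 mg/kg. The cause of these differences was not tested.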
